A study of Mus musculus with 2 samples.

Results

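Glutamine synthetase and the genes expressed with it mark the hepatocytes that line the central vein, and 8 such genes (Glul, Oat, Rhbg, Slc1a2, Lgr5, Axin2, Tbx3 and Lhpp) were followed here through 2 single-cell libraries of mouse liver. They were taken as a list of pericentral Wnt targets and ammonia-handling genes, and all 8 were among the 19059 genes of both libraries. The list was chosen with earlier results of these data known. Counts of members beside shares of all genes are therefore descriptions, not tests. Each was described by its level in cell classes gated on marker genes, along the pericentral to periportal order of the hepatocytes, and between the libraries by label.

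One library carried the label AEG-1DMAC, a myeloid cell-specific knockout of AEG-1 (Astrocyte elevated gene-1, gene symbol Mtdh), and the other the label AEG-1fl/fl, its floxed littermate control. Cre is driven by the lysozyme M locus, which is active in macrophages, monocytes and neutrophils, so hepatocytes of both genotypes carry the floxed gene. Both genotypes had received a high-fat, high-sugar diet (HF/HSD) from 7 weeks of age for 20 weeks, and livers were taken at 27 weeks. With 1 library per genotype, no difference between the libraries has a replicate check and no test was possible. Intervals are 95% intervals that cover counting error only. Whether a library holds 1 liver or several, and the sex of the animals in it, are not given in the sources used here.

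Blood crosses the liver lobule from the portal tract to the central vein, and hepatocytes along that path carry out different reactions. Endothelial cells of the central vein secrete Wnt ligands and R-spondin 3, which stabilise β-catenin in neighbouring hepatocytes and keep their pericentral programme on. Periportal hepatocytes turn ammonia into urea, whereas pericentral hepatocytes join the remaining ammonia to glutamate to make glutamine. Glul encodes glutamine synthetase, Oat ornithine aminotransferase, which yields glutamate from ornithine, Rhbg an ammonium transporter and Slc1a2 a glutamate transporter. Lgr5 encodes an R-spondin receptor, Axin2 a feedback inhibitor of β-catenin signalling, Tbx3 a T-box transcription factor and Lhpp a phosphatase.

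The libraries held 2581 and 3535 cells with 79589511 and 90440089 counts (the library labelled AEG-1DMAC first, as throughout), and 10 cell barcodes occurred in both. The cell filter kept 2571 and 3508 cells. Hepatocytes numbered 1081 and 973, with median counts per cell of 36069 and 41941, and all 12 hepatocyte markers on the panel were detected in them. Macrophage-gated cells numbered 383 and 864, endothelial-gated cells 249 and 324 and stellate-gated cells 188 and 279, with all their measured markers detected. Mtdh ran against the label: in macrophage-gated cells it stood at 114 and 33.2 CPM, where CPM is counts per 1000000 counts of the class. Where its probes lie relative to the deleted part is not given in the sources used here, so the labels could not be checked with it. Hepatocyte RNA was present in the other gates, whose hepatocyte markers together reached 38.1% to 69.1% and 30.4% to 63.1% of their level in hepatocytes.

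Among the members only Oat and Lhpp are neighbours in the genome. On GRCm38 (mm10, the build of the files) Oat is at chr7:132557478-132576398 on the minus strand and Lhpp at chr7:132610638-132706420 on the plus strand, with their starts facing each other across 34239 bases. Glul is at chr1:153899944-153909723, Slc1a2 at chr2:102658659-102790784, Rhbg at chr3:88242874-88254709, Tbx3 at chr5:119670669-119684724, Lgr5 at chr10:115450311-115587780 and Axin2 at chr11:108920349-108950783. The RefSeq promoter table (GRCm38.p6) matched 4 of the 8 members. The core letters of the TCF/LEF motif (CTTTGA, or TCAAAG on the other strand), to which the DNA-binding partners of β-catenin attach, were sought in the 250 bases before the start. They occurred in the window of Slc1a2, at 2 places, and not in those of Glul, Oat and Axin2. The Slc1a2 window precedes a start 47779 bases inside the annotated gene, and the stretch before the annotated gene start was not searched. The windows of Glul, Oat and Axin2 lie at or near the annotated gene start. Of all 32851 promoter windows of that length, 13.8% hold the core. Slc1a2, the member with the core, and Oat, the member that differed most between the libraries, are shown with the core in capitals, as the first 168 bases of the Slc1a2 window, which overlap no exon (chr2:102706188-102706355, plus strand, within the gene), and the whole Oat window (chr7:132576399-132576648, minus strand).
Slc1a2: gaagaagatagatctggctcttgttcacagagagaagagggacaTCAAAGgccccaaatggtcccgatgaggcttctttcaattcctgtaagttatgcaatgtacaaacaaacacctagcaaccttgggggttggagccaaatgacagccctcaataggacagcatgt
Oat: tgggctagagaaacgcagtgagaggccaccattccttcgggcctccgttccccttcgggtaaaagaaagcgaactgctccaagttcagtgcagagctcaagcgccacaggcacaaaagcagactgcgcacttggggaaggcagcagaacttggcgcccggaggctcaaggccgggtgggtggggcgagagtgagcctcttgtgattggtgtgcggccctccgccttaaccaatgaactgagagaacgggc
The other match of Slc1a2 begins 77 bases before that internal start, in a stretch that overlaps an annotated exon and is not shown.

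All 8 genes were higher towards the central vein in both libraries. Hepatocytes were ordered by the raw counts of Cyp2e1, a pericentral cytochrome, against those of Cyp2f2, a periportal one, and divided within each library into 3 zones and into 10 bins of equal cell number, with bin 10 at the pericentral end. The pericentral zone exceeded the periportal zone at least 2-fold for 8 of 8 members in both libraries, against 2.31% of 10924 genes with enough counts. Every member had its highest level in bin 10 of both libraries, and the share of all genes with that peak is not given here. Ranked by the ratio of pericentral to periportal zone among those genes, the members stood between place 3 and place 29 in the library labelled AEG-1DMAC and between place 3 and place 24 in the other.

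**Figure D1:**
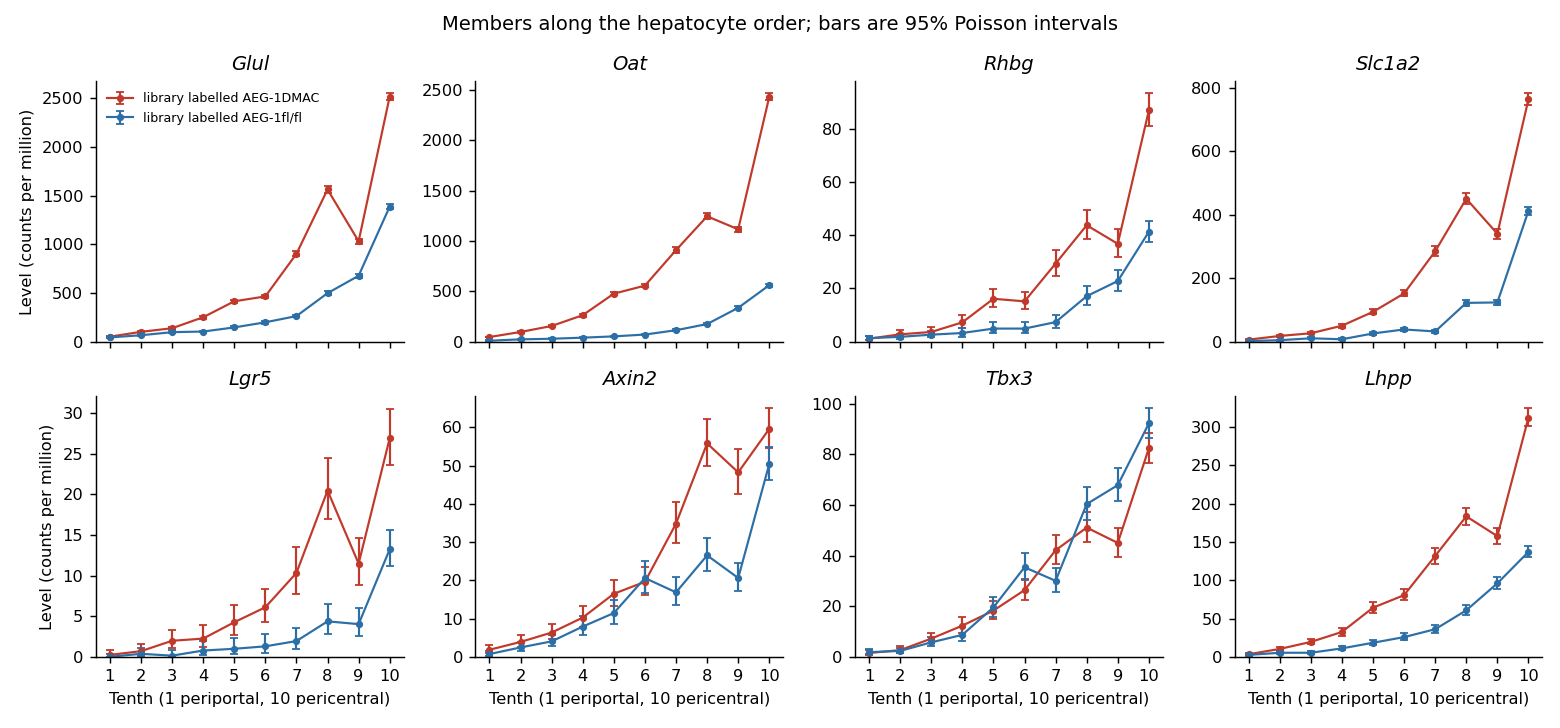
Level of each member (CPM, linear axis from 0) in 10 bins of hepatocytes of equal cell number, from the periportal (1) to the pericentral (10) end, in the library labelled AEG-1DMAC (red) and the library labelled AEG-1fl/fl (blue), with 95% Poisson intervals. All 8 genes peak in bin 10 of both libraries.

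Slc1a2 had the steepest gradient of the ammonia-handling members. Its level was 17.5, 143 and 535 CPM in the periportal, midlobular and pericentral zones of the library labelled AEG-1DMAC. In the library labelled AEG-1fl/fl the same zones held 5.77, 26.1 and 245 CPM. The pericentral level was 30.6-fold (27.8 to 33.8) and 42.5-fold (36.2 to 50.2) the periportal one.

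Glul, the gene for glutamine synthetase, was read bin by bin. From bin 1 to bin 10 it stood at 51.7, 102, 138, 251, 415, 465, 902, 1563, 1031 and 2517 CPM in the library labelled AEG-1DMAC. In the library labelled AEG-1fl/fl the bins held 44.6, 66.3, 98.1, 104, 147, 199, 263, 498, 677 and 1387 CPM. In the library labelled AEG-1DMAC the level fell from bin 8 to bin 9 before its peak, and the other 7 members had the same dip there. The pericentral zone was 17.4-fold (16.7 to 18.1) and 13.4-fold (12.7 to 14.0) the periportal zone. Bin 10 alone held 44.3% and 55.2% of the Glul counts of hepatocytes.

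Oat, which links ornithine to glutamate, reached 105, 551 and 1665 CPM in the periportal, midlobular and pericentral zones of the library labelled AEG-1DMAC and 21.6, 61.6 and 386 CPM in those of the library labelled AEG-1fl/fl. Its gradients were 15.9-fold (15.3 to 16.5) and 17.9-fold (16.4 to 19.5). Rhbg, the ammonium transporter, had 64 and 51 counts in the periportal zone. Its pericentral level of 57.8 and 28.7 CPM was 22.3-fold (17.4 to 29.2) and 15.03-fold (11.3 to 20.4) the periportal one. Lhpp stood at 225 and 102 CPM in the pericentral zone and at 11.6 and 4.72 CPM in the periportal zone, which is 19.4-fold (17.2 to 22.0) and 21.7-fold (18.1 to 26.1).

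The 3 signalling genes were pericentral as well. Lgr5, the R-spondin receptor, had 433 and 195 counts in the pericentral zone against 23 and 5 in the periportal zone, so its gradients of 21.5-fold (14.1 to 34.3) and 42.9-fold (18.1 to 134) are loosely fixed. Axin2, the feedback inhibitor, showed 12.2-fold (10.0 to 15.02) and 13.5-fold (10.6 to 17.6). Tbx3 showed 15.02-fold (12.3 to 18.6) and 21.8-fold (17.6 to 27.2).

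The order by raw counts also sorted cells by depth. Median counts per cell were 68103 and 94088 in bin 10, against 29967 and 46352 in bin 9. With Cyp2e1 and Cyp2f2 taken per 10000 counts of the cell, an order chosen after this was seen, bin 10 had median counts of 34788 and 50913, and all 8 members still peaked there. Glul in bin 10 then stood at 3847 and 1776 CPM, and Slc1a2 at 1252 and 523 CPM.

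Between the libraries, 7 of the 8 members were higher in hepatocytes of the library labelled AEG-1DMAC. Over 2-fold higher were 5 of 8 (Oat, Rhbg, Slc1a2, Lgr5 and Lhpp), against 1.51% of 12312 genes, and 0 of 8 were over 2-fold lower, against 2.62%. Oat differed most, with 752 and 162 CPM, a ratio of 4.64 (4.54 to 4.74), which placed it at rank 13 of those genes. Lgr5 was at 8.65 and 3.26 CPM, with a ratio of 2.65 (2.27 to 3.11). Slc1a2 was at 226 and 96.6 CPM, with a ratio of 2.34 (2.27 to 2.41). Lhpp was at 101 and 43.7 CPM, with a ratio of 2.32 (2.22 to 2.42). Rhbg was at 25.2 and 12.2 CPM, and its ratio of 2.06 (1.89 to 2.24) has an interval that reaches below 2-fold. Glul stood just under 2-fold, at 767 and 400.5 CPM with a ratio of 1.92 (1.89 to 1.94). Axin2 was at 25.2 and 17.1 CPM, with a ratio of 1.47 (1.37 to 1.59). Tbx3 was the exception, lower at 29.01 and 33.8 CPM with a ratio of 0.859 (0.807 to 0.913).

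Other pericentral genes did not share this as a group. Among 244 further genes with at least a 2-fold pericentral gradient in both libraries, the median ratio was 0.995. Of these, 14 (5.74%) were over 2-fold higher in the library labelled AEG-1DMAC, against 1.51% of 12312 genes. Another 17 were over 2-fold lower, against 2.62%, so genes past 2-fold were more frequent than among all genes in both directions. Cyp2e1, which set the order, had a ratio of 1.38 (1.37 to 1.38).

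**Figure D2:**
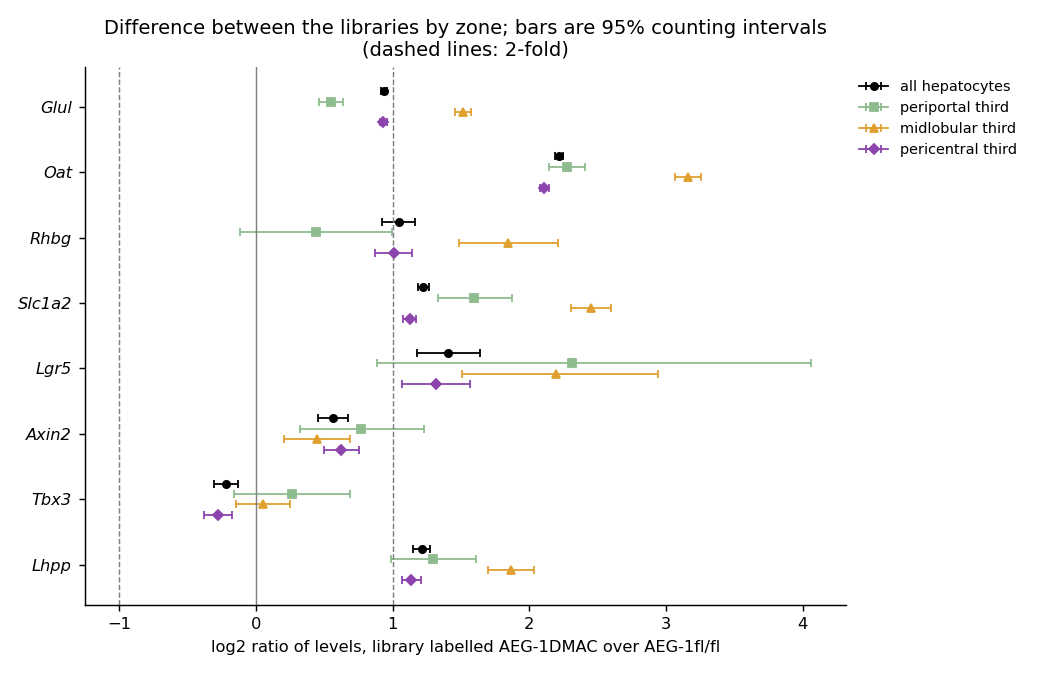
log2 ratio of each member's level, the library labelled AEG-1DMAC over the library labelled AEG-1fl/fl, in all hepatocytes and in the periportal, midlobular and pericentral zones (marked by shape and colour in the legend), with 95% counting intervals. Dashed lines mark 2-fold. For Glul, Oat, Rhbg, Slc1a2 and Lhpp the midlobular ratio is the largest of the 3 zones.

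For 5 members (Glul, Oat, Rhbg, Slc1a2 and Lhpp) the ratio between the libraries was largest in the midlobular zone. There 6 of 8 members were over 2-fold higher in the library labelled AEG-1DMAC, against 2.77% of 11226 genes, and 0 were over 2-fold lower, against 1.92%. Oat stood at 551 and 61.6 CPM in that zone, a ratio of 8.94 (8.39 to 9.54). Slc1a2 was at 143 and 26.1 CPM, a ratio of 5.46 (4.94 to 6.06). The ratio was 3.64 (3.24 to 4.10) for Lhpp, 3.58 (2.80 to 4.62) for Rhbg and 2.86 (2.74 to 2.98) for Glul. Lgr5 reached 4.58 (2.85 to 7.70), on 107 and 21 counts. With zones cut at the same values of the order in both libraries, the midlobular zone held 418 and 267 cells and the pericentral zone 335 and 350 cells. The midlobular ratio was then 8.99 for Oat, 4.82 for Slc1a2, 3.47 for Lhpp, 3.13 for Rhbg and 2.77 for Glul. The zones also rest on Cyp2f2, which was measured after every cell was thinned to 10000 counts. In hepatocytes with at least 10 Glul counts Cyp2f2 averaged 1.70 and 0.581 counts, and in the remaining hepatocytes 7.08 and 7.25. Its part in the midlobular ratios was not tested.

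In the pericentral zone 5 of 8 were over 2-fold higher, against 1.13% of 11111 genes, and 0 were over 2-fold lower, against 1.81%. The ratio was 4.31 (4.21 to 4.41) for Oat, 2.49 (2.10 to 2.96) for Lgr5, 2.20 (2.09 to 2.31) for Lhpp and 2.18 (2.11 to 2.25) for Slc1a2. It was 2.01 (1.83 to 2.21) for Rhbg, 1.91 (1.88 to 1.94) for Glul and 1.54 (1.41 to 1.69) for Axin2. Tbx3 was at 61.3 and 74.2 CPM, a ratio of 0.827 (0.769 to 0.888), but in bin 10 of the depth-scaled order its direction turned, at 116 and 98.0 CPM. In the periportal zone 7 members had enough counts, and 3 of these (Oat, Slc1a2 and Lhpp) were over 2-fold higher, against 1.06% of 11177 genes, and 0 were over 2-fold lower, against 2.75%. Lgr5, with 23 and 5 counts, was under the minimum there. Glul was at 101 and 68.9 CPM in that zone, a ratio of 1.46 (1.38 to 1.56).

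Counts of each member were found in a larger share of hepatocytes of the library labelled AEG-1DMAC. With every hepatocyte thinned to 10000 counts, which left out no cell, Oat was found in 78.7% (76.2 to 81.1) and 40.8% (37.7 to 44.0) of hepatocytes. Glul was found in 76.3% (73.7 to 78.8) and 68.3% (65.3 to 71.3). Shares were 37.1% and 18.4% for Slc1a2, 38.7% and 22.4% for Lhpp, 19.3% and 12.2% for Axin2, 16.3% and 9.25% for Rhbg and 6.66% and 2.36% for Lgr5. The shares for Tbx3 had overlapping intervals, at 20.9% (18.5 to 23.5) and 20.5% (18.0 to 23.1). Without thinning, Oat was found in 94.5% and 71.3%. In endothelial-gated cells thinned to 2000 counts, Oat was found in 38.7% (32.1 to 45.6) and 8.54% (5.55 to 12.4) and Glul in 49.5% (42.6 to 56.5) and 29.9% (24.6 to 35.6) of cells, with 37 and 43 shallower cells left out. Hepatocytes at that depth had Oat in 49.4% (46.4 to 52.4) and 17.9% (15.5 to 20.4) and Glul in 41.3% (38.3 to 44.3) and 32.6% (29.6 to 35.6). The share of hepatocytes with any Glul count was thus not above that of the endothelial gate beyond counting error in either library. Endothelial cells can express Glul themselves, so that gate is no clean background for it.

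Few hepatocytes carried most of the Glul. Those with at least 10 Glul counts of 10000 made up 16.004% of hepatocytes of the library labelled AEG-1DMAC (173 cells, 13.9% to 18.3%) and 9.56% of the other (93 cells, 7.78% to 11.6%), and they held 79.6% and 71.2% of the Glul counts. This is a range of a continuous level, with 66 and 31 cells at 7 to 13 Glul counts. Of these Glul-rich cells 127 and 77 lay in the pericentral zone, 45 and 16 in the midlobular zone, and 1 and 0 in the periportal zone. Their median depth was 34255 and 33860 counts, against 36480.5 and 42933 in the remaining hepatocytes.

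The Glul-rich cells held the other members to different degrees. Slc1a2 averaged 12.98 and 8.74 counts of 10000 in them, against 0.432 and 0.158 in the remaining hepatocytes. Oat averaged 32.6 and 12.5 against 3.08 and 0.676, and Lhpp 4.21 and 2.92 against 0.452 and 0.232. Rhbg averaged 1.22 and 0.903 against 0.0925 and 0.0568, Axin2 1.02 and 0.634 against 0.175 and 0.120, and Tbx3 1.03 and 1.24 against 0.177 and 0.276.

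Within the pericentral zone alone, 117 and 99 cells with the most Glul were set against 140 and 113 cells with the least. Slc1a2 differed 83.5-fold and 85.8-fold between them, Oat 12.1-fold and 14.9-fold and Lhpp 7.40-fold and 9.62-fold. Rhbg differed 19.8-fold and 49.1-fold, on 11 and 2 counts in the cells with the least Glul. Axin2 differed 3.46-fold and 2.75-fold, Tbx3 3.86-fold and 2.72-fold and Lgr5, on few counts, 3.87-fold and 6.85-fold. Of pericentral enzymes that are no members, Cyp1a2 differed 4.39-fold and 4.94-fold and Cyp2e1, whose range the zone itself narrows, 1.64-fold and 1.54-fold. Over the 360 and 324 cells of that zone, Spearman's rho of Glul was 0.80 and 0.72 with Slc1a2, 0.80 and 0.68 with Oat, 0.68 and 0.61 with Lhpp and 0.63 and 0.49 with Rhbg. It was 0.32 and 0.19 with Axin2, 0.35 and 0.27 with Tbx3 and 0.15 and 0.18 with Lgr5, which are sparse. The cells of a library share its free RNA, and these coefficients are descriptions.

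In each range of Glul the ratio between the libraries was larger for Oat than for Slc1a2, Lhpp and Rhbg. In hepatocytes with 10 to 29 Glul counts of 10000 (66 and 42 cells), Slc1a2 averaged 5.88 and 5.64 counts, a ratio of 1.04 (0.884 to 1.23), and Lhpp 2.38 and 2.33, a ratio of 1.02 (0.787 to 1.33). Rhbg had a ratio of 0.923 (0.504 to 1.72) in them. Oat averaged 17.9 and 8.74 in the same cells, a ratio of 2.04 (1.82 to 2.30), and Tbx3 0.485 and 0.952, a ratio of 0.509 (0.310 to 0.831). Oat was higher in the library labelled AEG-1DMAC in every range of Glul, with ratios of 4.06 (3.60 to 4.61) at 0 to 2 counts, 3.54 (3.11 to 4.05) at 3 to 9 and 2.67 (2.47 to 2.88) at 30 or more. In cells with 0 to 2 Glul counts (629 and 719 cells) the ratio was 2.59 (1.88 to 3.60) for Slc1a2, 2.40 (1.86 to 3.11) for Lhpp and 1.45 (0.803 to 2.67) for Rhbg. At 3 to 9 counts (279 and 161 cells) it was 1.85 (1.44 to 2.40), 1.12 (0.887 to 1.42) and 1.15 (0.721 to 1.89) in the same order. At 30 or more Glul counts (107 and 51 cells) it was 1.54 (1.40 to 1.69), 1.56 (1.32 to 1.86) and 1.36 (1.01 to 1.83) in that order. Glul itself averaged 54.8 and 46.7 in those cells. Axin2 had ratios of 1.81 (1.32 to 2.51) at 0 to 2 counts, 0.788 (0.517 to 1.21) at 3 to 9, 0.759 (0.436 to 1.33) at 10 to 29 and 2.09 (1.43 to 3.16) at 30 or more. Tbx3 had ratios of 0.651 (0.490 to 0.860) at 0 to 2 counts, 0.460 (0.338 to 0.625) at 3 to 9 and 0.928 (0.698 to 1.24) at 30 or more.

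**Figure D3:**
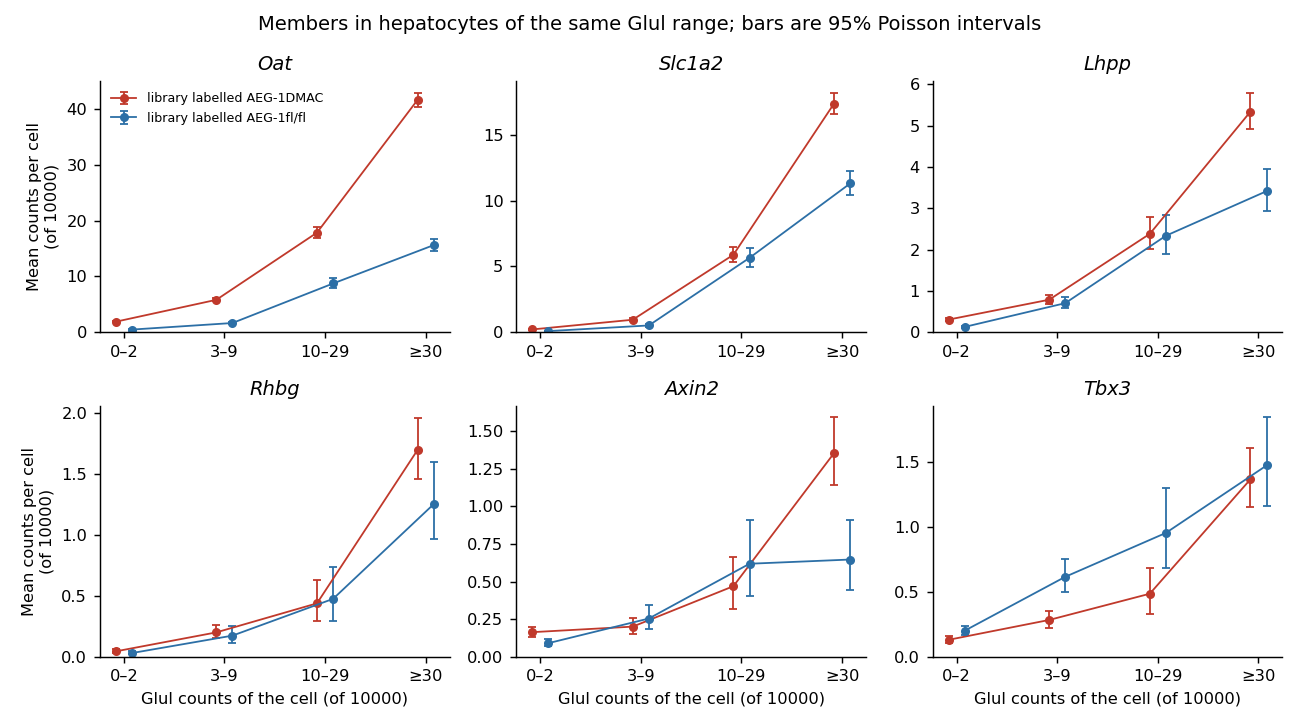
Mean counts per hepatocyte, after thinning to 10000 counts, of members in cells grouped by their own Glul count (0 to 2, 3 to 9, 10 to 29, 30 or more), in the library labelled AEG-1DMAC (red) and the library labelled AEG-1fl/fl (blue), with 95% Poisson intervals. Oat is higher in red in every group, whereas Slc1a2 and Lhpp have overlapping intervals at 10 to 29.

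Outside hepatocytes most members lay near the level that free hepatocyte RNA would give. Among the 4 largest classes (hepatocyte, macrophage, endothelial and stellate), 7 of 8 members were highest in hepatocytes in both libraries, and Axin2 was highest in stellate-gated cells. With the small classes included, 2 of 8, Glul and Rhbg, were highest in hepatocytes in both libraries. The shares of all genes highest in hepatocytes are not given here, so these counts do not set the members apart from other genes. In the B gate of the library labelled AEG-1fl/fl (48 cells) the levels of Oat, Slc1a2, Tbx3 and Lhpp exceeded those in hepatocytes, on 68, 45, 17 and 29 counts. Lgr5 had 1 count in that gate, which sets no order. The level expected from free RNA is the hepatocyte level of a member times the share of hepatocyte markers in the class. Over the macrophage, endothelial and stellate gates, 20 of 24 values of the library labelled AEG-1DMAC and 15 of 24 of the other lay within 1.5-fold of it.

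Glul in macrophage-gated cells was at 654 and 303 CPM, 1.40 and 1.65 times the expected level. In endothelial-gated cells it was at 553 and 235 CPM, 1.32 and 1.69 times, and in stellate-gated cells at 475 and 273 CPM, 0.896 and 1.18 times. Oat in macrophage-gated cells was at 566 and 97.7 CPM, 1.23 and 1.31 times the expected level, so its difference between the libraries appeared there too, with a ratio of 5.79 (5.36 to 6.27). Slc1a2 in stellate-gated cells was at 97.0 and 34.7 CPM, 0.622 and 0.619 times the expected level. Axin2 stood above the expected level in stellate-gated cells, at 34.3 and 28.5 CPM (58 and 78 counts, 1.97 and 2.87 times), and in T and NK-gated cells, at 50.9 and 84.3 CPM, on 7 and 29 counts. The part of doublets or attached hepatocyte fragments in these values was not tested.

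**Figure D4:**
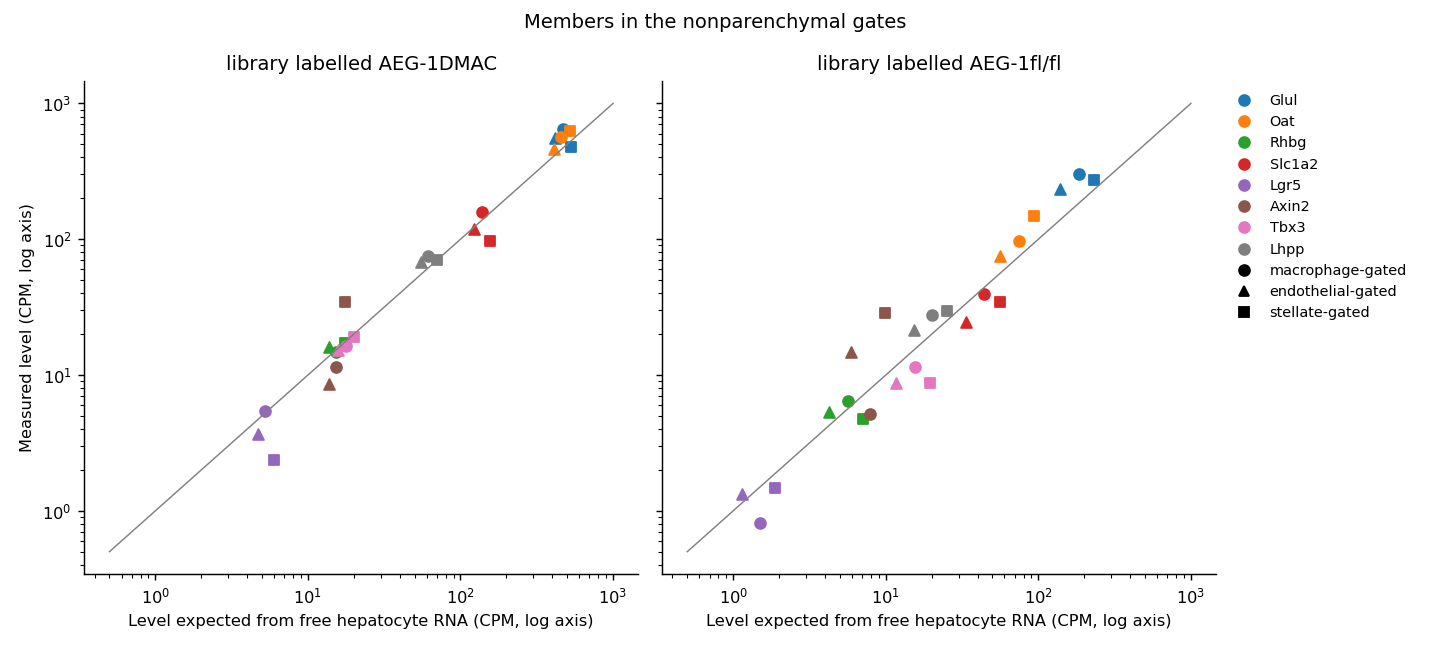
Measured level of each member in macrophage-gated, endothelial-gated and stellate-gated cells against the level expected from free hepatocyte RNA, both in CPM on log axes, for each library, with a line at equality. Axin2 in stellate-gated cells lies above the line in both libraries, at 34.3 and 28.5 CPM.

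The ligands that act on these hepatocytes were measured in the gates that make them. Of 14 genes for Wnt ligands, R-spondins and their secretion, 4 had enough counts in endothelial-gated cells. Of these 1, Rspo3, was over 2-fold higher in the library labelled AEG-1DMAC, against 2.19% of 8740 genes, and 0 were over 2-fold lower, against 2.94%. Rspo3, the R-spondin of central vein endothelium, was at 230.4 and 111 CPM, a ratio of 2.07 (1.72 to 2.50). Wnt2 was at 209 and 123 CPM, a ratio of 1.69 (1.41 to 2.04), and Wnt9b at 35.7 and 29.99 CPM, a ratio of 1.19 (0.793 to 1.80). Wls, which carries Wnt proteins to the cell surface, was at 76.4 and 107 CPM, a ratio of 0.716 (0.562 to 0.911).

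The endothelial markers summed to 11131 and 14647 CPM in that gate. Per 1000 endothelial marker counts, Rspo3 stood at 20.7 and 7.60 (ratio 2.72, 2.26 to 3.29), Wnt2 at 18.8 and 8.42 (ratio 2.23, 1.86 to 2.68) and Wnt9b at 3.21 and 2.05 (ratio 1.57, 1.04 to 2.37), while Wls stood at 6.86 and 7.28 (ratio 0.943, 0.739 to 1.199). More central vein cells among the endothelial-gated cells and a higher level per cell cannot be told apart here. In stellate-gated cells, where the markers summed to 16505 and 29360.3 CPM, Rspo3 was at 129.6 and 142 CPM. Frzb, a Wnt antagonist, was at 91.7 and 206 CPM there, and Dkk3, of the Dickkopf family, at 74.0 and 127 CPM. Per 1000 stellate marker counts the direction for Rspo3 turned, with 7.85 and 4.83 (ratio 1.63, 1.37 to 1.92). On that scale Frzb stood at 5.56 and 7.02 (ratio 0.792, 0.659 to 0.947) and Dkk3 at 4.48 and 4.33 (ratio 1.03, 0.837 to 1.27). The stellate markers include the matrix genes Col1a1, Col1a2, Col3a1 and Lum. Their part in the ratios on that scale, and in the turn for Rspo3, was not tested.

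**Figure D5:**
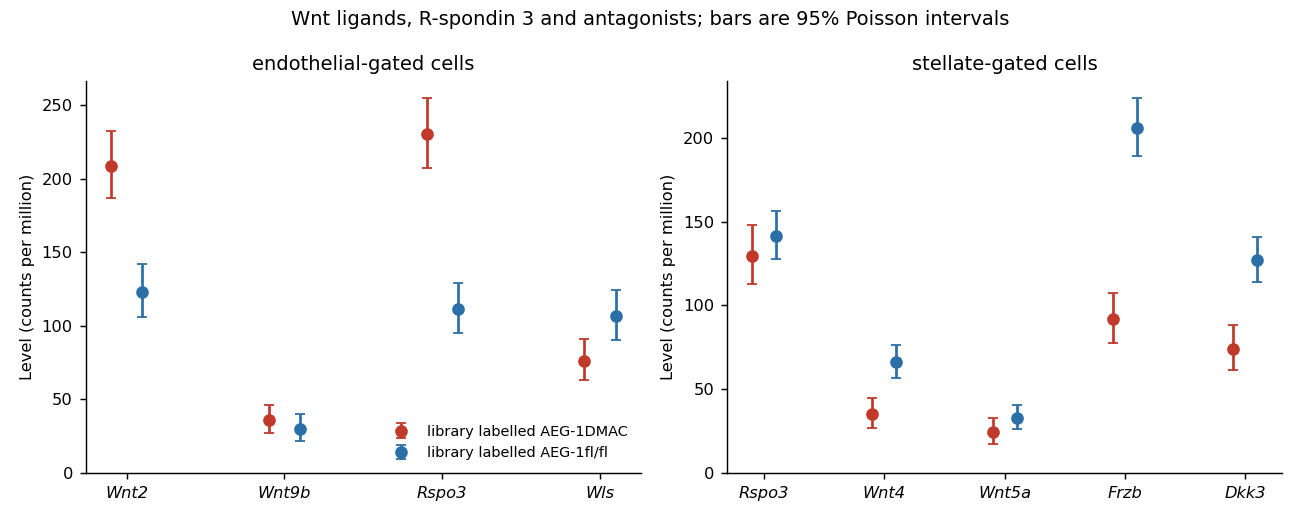
Level (CPM, axis from 0) of Wnt ligands, R-spondin 3, Wls, Frzb and Dkk3 in endothelial-gated and stellate-gated cells of the library labelled AEG-1DMAC (red) and the library labelled AEG-1fl/fl (blue), with 95% Poisson intervals. The intervals of Wnt2 and Rspo3 in endothelial-gated cells do not overlap, and those of Wnt9b do.

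For the rest of the pathway in hepatocytes, each list had 0 or 1 gene past 2-fold in a given direction. Of all genes 1.51% were higher and 2.62% lower, as given above. The lists are too short to be set against those shares. Of the 11 receptor genes and 15 transduction genes with enough counts, 0 passed 2-fold in either direction. Ctnnb1, which encodes β-catenin, was at 91.5 and 119 CPM, a ratio of 0.771 (0.746 to 0.798), and the R-spondin receptor gene Lgr4 at 43.9 and 51.2 CPM, a ratio of 0.857 (0.815 to 0.901). Of 17 other Wnt target genes, 11 were at least 2-fold pericentral in both libraries. In hepatocytes 15 of the 17 were higher in the library labelled AEG-1DMAC, and 1, Nkd1, was over 2-fold higher. The median log2 ratio was 0.21 over the list against 0.01 over all genes. In the midlobular zone 3 of the 17 (Sp5, Nkd1 and Cyp1a2) were over 2-fold higher, against 2.77% of 11226 genes. There 0 were over 2-fold lower, against 1.92%. In the pericentral zone 1 of the 17, Nkd1, was over 2-fold higher, against 1.13% of 11111 genes. Another 1, Ccnd1, was over 2-fold lower in that zone, against 1.81%. Of 7 Wnt inhibitor genes with enough counts in hepatocytes, 1, again Nkd1, was over 2-fold higher and 0 were over 2-fold lower. Their median log2 ratio was 0.39, with 6 of the 7 above 0. Nkd1, Notum and Rnf43 are in this list and in that of the other Wnt targets, so these lists are not independent. Nkd1, an inhibitor of Dishevelled, stood at 10.1 and 2.66 CPM, a ratio of 3.82 (3.24 to 4.53). Notum, a secreted enzyme that inactivates Wnt ligands, had a ratio of 1.46 (1.37 to 1.55), Sp5 one of 1.64 (1.37 to 1.97) and Rnf43 one of 1.34 (1.26 to 1.42). Among 9 ligand and secretion genes, Wnt2 was over 2-fold higher at 4.48 and 1.90 CPM and Wnt4 over 2-fold lower at 0.952 and 2.74 CPM. Endothelial markers also had counts in hepatocytes of both libraries, and Wnt2 stood far higher in endothelial-gated cells, as given above. The part of free endothelial RNA in the hepatocyte level of Wnt2 was not tested.

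Of the other nitrogen genes, 0 of 16 for ammonia and glutamine and 0 of 12 for ornithine and proline passed 2-fold in hepatocytes in either direction, which at the same shares of all genes sets these lists apart from no other. Cps1, the first enzyme of the urea cycle, was at 1374 and 1376 CPM, and Glud1, glutamate dehydrogenase, at 1151 and 1117 CPM. Gls2, the liver glutaminase, was at 143 and 96.8 CPM, a ratio of 1.48 (1.43 to 1.53), and Prodh, proline dehydrogenase, at 409 and 277 CPM, a ratio of 1.47 (1.45 to 1.502). Odc1, which also draws on ornithine, was at 99.3 and 113 CPM, a ratio of 0.879 (0.850 to 0.908). Gls2, Cps1, Got1, Arg1 and Otc ran the opposite way along the order, at least 2-fold higher in the periportal than in the pericentral zone of both libraries. In the pericentral zone Gls2 was over 2-fold higher in the library labelled AEG-1DMAC, as 1 of 16 ammonia and glutamine genes (all genes 1.13%). Aldh18a1, 1 of 11 ornithine and proline genes, was over 2-fold lower in that zone (all genes 1.81%).

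The nearest measured gene on each side of the Oat and Lhpp pair on chromosome 7 did not reach 2-fold in either respect. Fam53b, on the far side of Lhpp, had a ratio between the libraries of 1.08 (1.02 to 1.15) and pericentral gradients of 1.14-fold and 1.15-fold. Chst15, on the far side of Oat, had a ratio of 1.37 (1.23 to 1.53) and pericentral gradients of 1.34-fold and 1.12-fold. Nkx1-2, which lies between Oat and Lhpp, had 1 count and 0 counts in hepatocytes. Fgfr2, whose annotated span covers both Oat and Lhpp, had a ratio between the libraries of 0.985 (0.879 to 1.10). It ran the opposite way along the order, with a pericentral level 0.262 and 0.206 times the periportal one.

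Likeness to each member was measured by Pearson's r over 20 sums (10 bins in each library). Several members were more like each other than like any other gene, as Glul and Lhpp were with an r of 0.99, and Rhbg and Glul with 0.99. With the members left out, the most like genes were Dlat (0.99), Notum (0.98) and Slco1b2 (0.98) for Glul, Fam107b (0.98), Cyp2c37 (0.98) and Ces2c (0.97) for Oat and Dlat (0.99), Ces2c (0.98) and Cyp1a2 (0.97) for Slc1a2. They were Slc22a3 (0.97), Fmo5 (0.97) and Dlat (0.97) for Rhbg, Dlat (0.98), Cyp1a2 (0.98) and Gstm2 (0.98) for Lhpp and Ugt2a3 (0.97), Cib2 (0.96) and Slc16a10 (0.96) for Lgr5. For Axin2 they were Ahr (0.99), Notum (0.99) and Npr2 (0.98), and for Tbx3 Cyp2c38 (0.99), Clstn3 (0.99) and Tsc22d1 (0.99). The bins share the order and the depth of their cells, so these values describe likeness only. Cyp2c37, among those most like Oat, had a ratio between the libraries of 2.85, and Dlat, the gene outside the members most like Glul, had one of 1.28.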

How the data were processed

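Livers of HF/HSD-fed AEG-1DMAC and AEG-1fl/fl mice were profiled by the authors from flash-frozen, fixed and dissociated tissue with 10x fixed RNA profiling, which counts probe pairs by molecular identifiers. The deposited matrices hold raw counts per gene and cell, 1 library per genotype, made with Cell Ranger 7.1.0 on mm10 according to the submitters' processing notes. Levels of different genes depend on their probes and were not compared.

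A cell entered with 100 or more genes and no more than 10% mitochondrial counts. Classes were gated on marker counts per 10000 (macrophage 50, endothelial 40, stellate 40, cholangiocyte 15, T and NK 15, B 30, neutrophil 30), with at least 3 markers detected and 1 gate passed. Hepatocytes passed no gate and had at least 10000 counts and 500 hepatocyte marker counts per 10000. Gates were set after the data were seen, and the members and lists were chosen with earlier results of these data known. No doublet caller was run. The order was log2((Cyp2e1 + 1)/(Cyp2f2 + 1)). Counts were summed per class or bin and scaled to CPM, with exact Poisson intervals, Clopper-Pearson intervals for ratios and exact binomial ones for shares. Ratios across all genes used genes with at least 50 summed counts, and called meant past 2-fold. The ratio script was tested on simulated data. Positions came from GENCODE M21 and promoters from RefSeq.

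Genes named were the members, examples of the lists (past 2-fold first, then by counts) and, for each member, the 3 genes with the highest Pearson's r of log2(CPM + 5) among those with at least 500 counts. Genes beside Oat and Lhpp, and some list examples, were chosen after their values were seen. Python 3.11.15, NumPy 2.4.6, pandas 2.3.3 and SciPy 1.17.1 were used.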

Additional observations from a re-analysis of the deposited data

Results flagged for a closer look

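Tbx3 went in opposite directions between the libraries in different classes. Its level in the library labelled AEG-1DMAC over that in the library labelled AEG-1fl/fl was 0.859 (0.807 to 0.913) in hepatocytes and 0.827 (0.769 to 0.888) in their pericentral zone, but 1.44 (1.05 to 1.97) in macrophage-gated and 2.16 (1.23 to 3.83) in stellate-gated cells, the last on 32 and 24 counts. The difference between the classes was not tested. Free hepatocyte RNA would give 17.7 and 15.5 CPM in macrophage-gated cells, where 16.5 and 11.4 CPM were measured, and 20.0 and 19.6 CPM in stellate-gated cells, where 18.9 and 8.77 CPM were measured. Its part in the result was not tested.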

How the results depend on the processing

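All 8 members kept an at least 2-fold pericentral gradient and a peak in bin 10 of both libraries with pooled cut points, a second order (Cyp2e1, Cyp1a2 and Aldh1a1 against Cyp2f2, Hal and Sds), the depth-scaled order and without the 10% deepest hepatocytes. Over its alternatives, the count of members over 2-fold higher ranged from 4 to 5 in hepatocytes and from 4 to 6 in the pericentral zone, and it was 6 in the midlobular zone throughout. The midlobular ratio ranged from 6.68 to 9.56 for Oat, 3.17 to 5.91 for Slc1a2, 2.87 to 3.85 for Lhpp, 2.36 to 4.15 for Rhbg and 2.29 to 2.91 for Glul. The ratio for Tbx3, 1.04 in the midlobular zone as reported, was 0.916 to 0.996 over the alternatives. Single ratios and gradients often moved further than their counting intervals. Without the 10% deepest hepatocytes 23 lay outside and 25 inside. With the mean over cells it was 17 and 15, with pooled cut points 14 and 34 and with the second order 1 and 47. The pericentral ratio for Oat ranged from 3.68 to 4.67. Counts by class depended on the processing. Members highest in hepatocytes among all classes numbered 2, but 1 with a cell filter of 500 genes and 5% mitochondrial counts, 6 with the mean over cells and 7 with gates multiplied by 2, a choice made after seeing the data. Members over 2-fold lower than in hepatocytes in both libraries numbered 1 in macrophage-gated cells (7 with free RNA taken away, 4 with the mean over cells, 5 with the stricter gates). In endothelial-gated cells they numbered 1 (7, 5 and 6 in the same order), and in stellate-gated cells 2 (6 with free RNA taken away and 1 with the mean over cells). The cause was not tested, and shares of all genes are not given beside these counts by class. List genes over 2-fold lower in endothelial-gated cells numbered 1, and 0 with at least 200 summed counts, where fewer genes enter. No paired analysis was possible because each genotype has 1 library. Few counts limit Lgr5 in the periportal zone, and few cells limit the B, T and NK, cholangiocyte and neutrophil gates.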
